A study of Mus musculus with 29 samples.

Results

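The cadherin and protocadherin genes, whose products are calcium-dependent adhesion proteins of the cell surface, were examined in 29 single retinal ganglion cells (RGCs). They were chosen by name, as every gene whose symbol in the array annotation starts with Pcdh, or with Cdh and a digit, and only through probe sets of 1 gene. This gave 56 of the 18194 genes with a value. They comprised 5 type I and 11 type II classical cadherins, 5 other cadherins, 4 delta-1 and 5 delta-2 protocadherins, 3 other solitary protocadherins and 23 clustered protocadherins, of which 22 were *Pcdhb* genes and 1 was *Pcdhgc4*.

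All cells came from retinas of adult mice of the strain C57BL/6 (C57BL/6J in the study's methods), without a transgene or drug named in the labels, and each was classified by its response to light in the whole retina, aspirated with a pipette, amplified by PCR and measured on a separate Affymetrix mouse array. The 8 direction-selective (DS) cells were 4 ON DS and 4 ON-OFF DS cells, and the 9 alpha cells were 3 OFF T alpha (transient), 4 OFF S alpha (sustained) and 2 ON alpha cells. The others were 1 ON vOS and 1 ON hOS cell (OS, orientation selective), 2 SbC cells (suppressed by contrast) and 1 cell each labelled LED, PixON, J-RGC, ON S non-alpha, OFF high speed selective, EyeWire 4i, EyeWire 6sn and EyeWire 6sw. Cells are named by subtype and by the number in their label, and the class of other subtypes leaves out the OS cells and holds 10 cells. Each value is a MAS5 signal, a linear intensity on an array whose 2% trimmed mean was 1500, and a gene was called detected at a signal of 3000 or more. No source used here names the animal of a cell, so cells were not treated as replicates, no test between groups was made, and every difference below is a description. Intervals of shares are exact 95% Clopper-Pearson intervals and cover counting error only.

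The number of detected genes, taken here for the depth of a library, had a median of 2908. It ran from 1182 in SbC 26 to 4201 in EyeWire 6sw 21, a cell with 9 rod and 6 cone genes. The part of RNA from other cells in this number was not tested. Of 14 RGC markers with a value, 13 were detected in at least 3 cells. The number per cell ran from 5, in EyeWire 6sw 21 and SbC 26, to 13 (median 10). At least 5 of 10 rod photoreceptor genes were detected in 18 cells, namely 6 of 9 alpha, 3 of 8 DS and 1 of 2 OS cells and 8 of the 10 cells of other subtypes, and these are called the rod-gene-rich cells. The other 11 cells had 0 to 3 rod genes. Markers of further cell types were also detected in at least 3 cells, among them 6 of 6 cone, 5 of 6 bipolar, 5 of 8 Muller glia and 4 of 8 amacrine genes. The endothelial and pericyte markers *Pecam1*, *Cldn5* and *Pdgfrb* were detected in no cell and *Kdr*, the remaining vascular marker, in 1 rod-gene-rich cell (ON vOS 9, at 4682), and *Cdh5*, the cadherin of vascular endothelium, was in none either.

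Classical cadherins join cells by binding like molecules on the next cell, and their cytoplasmic tails hold catenins that link them to actin. Protocadherins have more cadherin repeats and lack the catenin-binding tail. The delta protocadherins stand alone in the genome and bind actin regulators or phosphatases, while the clustered ones are encoded side by side and are expressed in differing sets from neuron to neuron. In the retina, members of the superfamily are known from the lamination of dendrites, the matching of synaptic partners and the spacing of cells.

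Few cadherin genes were detected in many cells. Of the 56 genes, 12 were detected in at least 3 cells (21.4%), against 39.1% of all genes with a value. In at least 1 cell 28 of them were detected (50%), against 55.0% of all genes, and 13 of those were in 1 cell only. Of all gene and cell pairs 6.65% were detected for these genes and 15.4% over all genes. Detection also depends on the probe set, since the cDNA was primed at the poly(A) tail and a probe set far from that end can read low, so counts say less about the order of genes than about the cells. The delta protocadherins stood out by count, with 7 of 9 genes in at least 3 cells and 65 of the 108 detections (60.2%). Of these 65, *Pcdh9* alone gave 22. With the mean of all probe sets of a gene, *Pcdh7*, *Pcdh10*, *Pcdh18* and *Pcdh19* were detected in no cell. Among the 16 classical cadherins 3 genes reached 3 cells, and among the 23 clustered protocadherins 2 did.

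**Figure D1:**
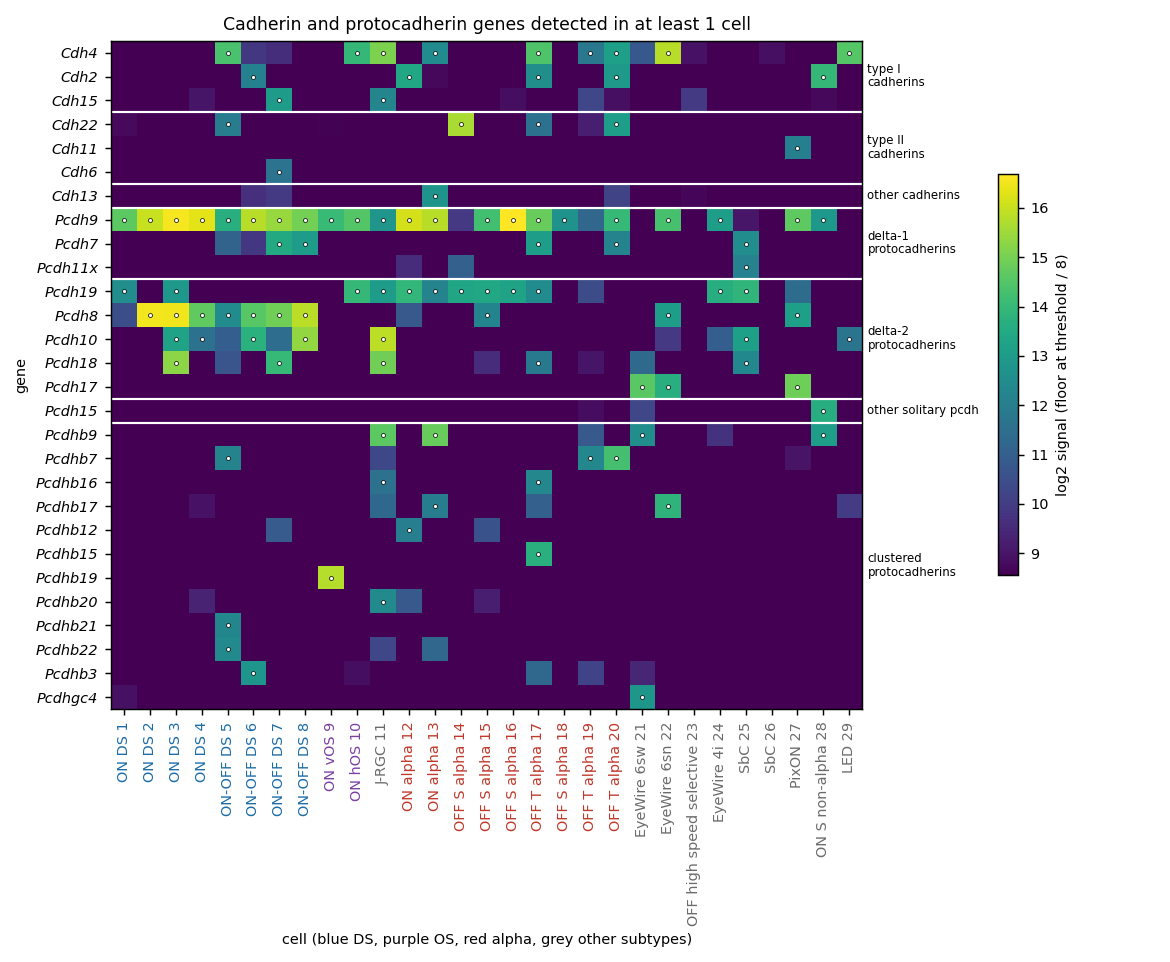
Log2 signal of the 28 genes detected in at least 1 cell (rows, grouped by subfamily) in each of the 29 cells (columns in the order of their numbers, names colored by class), with signals under 375 drawn at that floor. White points mark signals of 3000 or more; *Pcdh9* has such points in 22 cells and 13 genes have a single one.

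A median of 3 of these genes was detected per cell. The highest number was 9, in J-RGC 11 and OFF T alpha 17, and at the main probe sets none was detected in OFF high speed selective 23 and SbC 26, although another probe set of *Pcdh7* read 17727 in the former. The DS cells had 2 to 7 (median 4.5) and the alpha cells 1 to 9 (median 3), so the classes overlapped, and the 10 cells of other subtypes had 0 to 9 (median 3.5). Cells with more detected genes had more of them (Pearson r = 0.55, Spearman rho = 0.51 over 29 cells, r = 0.56 without the 2 cells with the most distant numbers of detected genes), as a description of libraries that differ in depth. The 11 cells with few rod genes had a median of 5 of these genes and the 18 rod-gene-rich cells a median of 2, with similar medians of 2748 and 2944.5 detected genes. Among the 5 DS and 3 alpha cells with few rod genes, the median of the DS cells was 2 genes below that of the alpha cells, and thus the order turned. The part of rod RNA in these counts was not tested.

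**Figure D2:**
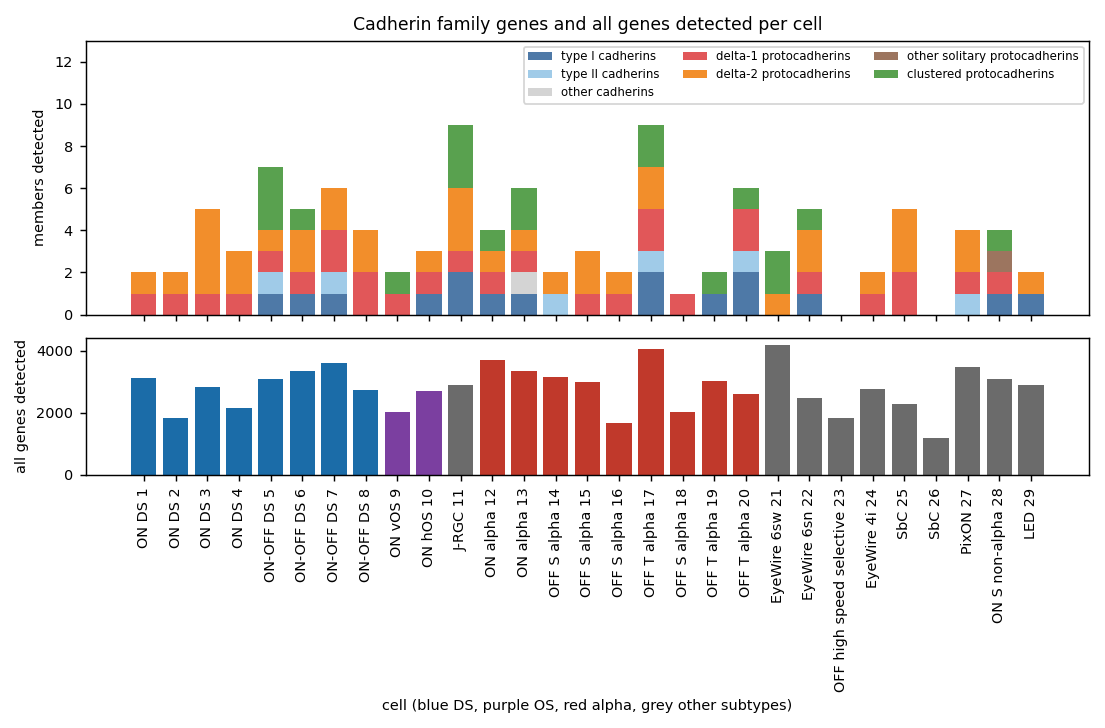
Number of cadherin and protocadherin genes detected in each of the 29 cells, stacked by subfamily (top), and number of all genes detected in the same cells (bottom, colored by class). J-RGC 11 and OFF T alpha 17 reach 9, and OFF high speed selective 23 and SbC 26, which also have few detected genes (1826 and 1182), have none at the main probe sets.

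*Pcdh9*, a delta-1 protocadherin, was the gene of the family detected most often at the main probe sets, in 22 of 29 cells (75.9%, interval 56.5% to 89.7%), but with the mean of its probe sets it was detected in 3 cells. It was detected in 8 of 8 DS cells, with signals from 13113 in ON-OFF DS 5 to 96857 in ON DS 3 (median 50517). In alpha cells it was detected in 7 of 9, from 953 in OFF S alpha 14 to 105029 in OFF S alpha 16 (median 18968), so the range of the DS cells lay within that of the alpha cells. Both OS cells had it, at 16633 (ON vOS 9) and 23341 (ON hOS 10). In the 10 cells of other subtypes it split into 5 cells between 7055 and 25982 and 5 cells at or under 528. The median log2 signal was 15.61 in DS cells (SD 0.96, n = 8) and 14.21 in alpha cells (SD 2.29, n = 9), a difference of 1.40, smaller than the spread among the alpha cells. All 11 cells with few rod genes had *Pcdh9*, and 11 of the 18 rod-gene-rich cells did. Another probe set of *Pcdh9* was detected in 3 of these cells and the last one in none.

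*Pcdh7*, a delta-1 protocadherin that binds protein phosphatase 1, was detected in 5 cells at its main probe set. The signals were 11531 in ON-OFF DS 7, 8288 in ON-OFF DS 8, 8677 in OFF T alpha 17, 4676 in OFF T alpha 20 and 5887 in SbC 25. Thus 2 of 8 DS cells and 2 of 9 alpha cells had it. The highest signal of this probe set among the other cells was 2267, in ON-OFF DS 5. A different *Pcdh7* probe set passed the threshold in OFF high speed selective 23 (17727) and ON-OFF DS 6 (7296), where the main one read 89.3 and 934, so with any probe set 7 cells had the gene. *Pcdh11x*, an X-linked delta-1 gene, was detected in SbC 25 alone, at 4576, and *Pcdh1* in no cell.

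The 5 delta-2 protocadherins, several of which recruit the WAVE actin complex through their tails, were each detected in at least 3 cells, but in different cells. *Pcdh8*, an activity-regulated protocadherin that acts in the removal of cadherins from synapses, was detected in 10 cells. Its signals were 1465, 94891, 93859 and 26297 in ON DS 1 to 4 and 5736, 24270, 31007 and 58927 in ON-OFF DS 5 to 8. In alpha cells the highest signals were 4788 in OFF S alpha 15 and 1791 in ON alpha 12, with the other 7 cells at or under 170. EyeWire 6sn 22 had 8654, PixON 27 had 9020 and the other 8 cells of other subtypes had 335 or less. Hence 7 of 8 DS cells (87.5%, interval 47.3% to 99.7%) and 1 of 9 alpha cells (11.1%, interval 0.281% to 48.2%) had *Pcdh8*, and the 2 groups overlapped only through ON DS 1 and, on the alpha side, OFF S alpha 15 and ON alpha 12. A second probe set was also detected in 6 of the 7 DS cells and in no other cell.

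*Pcdh10*, a delta-2 protocadherin known from axon growth and synapse elimination, was detected in 7 cells. Its signals in ON DS 1 to 4 were 21.2, 99.0, 9684 and 3082, and in ON-OFF DS 5 to 8 they were 2020, 13564, 2819 and 41863. In the 9 alpha cells the signals ran from 48.8 to 146, with none near the threshold. The highest signal of all was 60458 in J-RGC 11, and SbC 25 had 9047 and LED 29 had 3286. This made 4 of 8 DS cells (50%, interval 15.7% to 84.3%) and 0 of 9 alpha cells (interval up to 33.6%), while 2 further DS cells lay between 1500 and 3000. ON DS 4 and LED 29 were just above the threshold, and at a threshold of 6000 the difference fell under 50 percentage points. No other probe set of *Pcdh10* reached 3000.

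*Pcdh19*, an X-linked delta-2 protocadherin whose mutation causes epilepsy in people, was detected in 12 cells. OFF T alpha 17 (5682), OFF S alpha 14, 15 and 16 (10207, 10674 and 9566) and both ON alpha cells (15641 and 4680) had it. OFF S alpha 18 had 86.5, and OFF T alpha 19 and 20 had 1393 and 382. In DS cells it was detected in ON DS 1 (5992) and ON DS 3 (7515), and the other 6 DS cells had 2.64 to 15.7. A different probe set read 3561 in PixON 27, where the main one read 2741. The remaining 4 cells were ON hOS 10 (16127), J-RGC 11 (8378), EyeWire 4i 24 (12504) and SbC 25 (14822). The share was 6 of 9 alpha cells (66.7%, interval 29.9% to 92.5%) and 2 of 8 DS cells (25%, interval 3.19% to 65.1%). The difference of 41.7 percentage points was under 50 with all cells. It was at least 50 without the rod-gene-rich cells, and also when certain single cells were left out. At the main probe sets *Pcdh8*, in 10 cells, and *Pcdh19*, in 12, were detected together in 2 cells, ON DS 3 and OFF S alpha 15. With the other *Pcdh19* probe set counted, PixON 27 also had both. At least 1 of the 2 genes was in 20 of the 29 cells, among them 8 of 8 DS cells and 6 of 9 alpha cells. Whether they met less often than unrelated genes would was not tested.

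*Pcdh18* was detected in 5 cells. ON DS 3 had 39131, J-RGC 11 had 30750, ON-OFF DS 7 had 16431, SbC 25 had 5174 and OFF T alpha 17 had 3681. In 3 of them *Pcdh10* was also detected, and in 4 of them *Pcdh19* was. The other *Pcdh18* probe sets reached at most 463 and 620. *Pcdh17* was detected in 3 cells, all of other subtypes, at 24916 in EyeWire 6sw 21, 13000 in EyeWire 6sn 22 and 30162 in PixON 27. In the other 26 cells its signal was 234 or less, and no cell lay near the threshold. The other *Pcdh17* probe set reached at most 212. EyeWire 6sw 21 and PixON 27 had 9 rod genes each and 6 and 4 cone genes, while EyeWire 6sn 22 had none of either. The part of RNA from other cells in these values was not tested. EyeWire 6sn 22 and PixON 27 were also the 2 cells outside the DS and alpha classes with *Pcdh8*. In the order of protein-coding genes of the mouse assembly GRCm38.p6, *Pcdh8* and *Pcdh17* are separated by *Olfm4* alone, and *Pcdh10* and *Pcdh18* by *Pabpc4l* alone. *Pcdh17* and *Pcdh20* are separated by *Diaph3* and *Tdrd3*, and *Pcdh20* and *Pcdh9* by no gene. Of this last pair *Pcdh9* was detected in 22 cells and *Pcdh20* in none. The order gives no distance in bases, and its relation to joint detection was not tested.

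**Figure D3:**
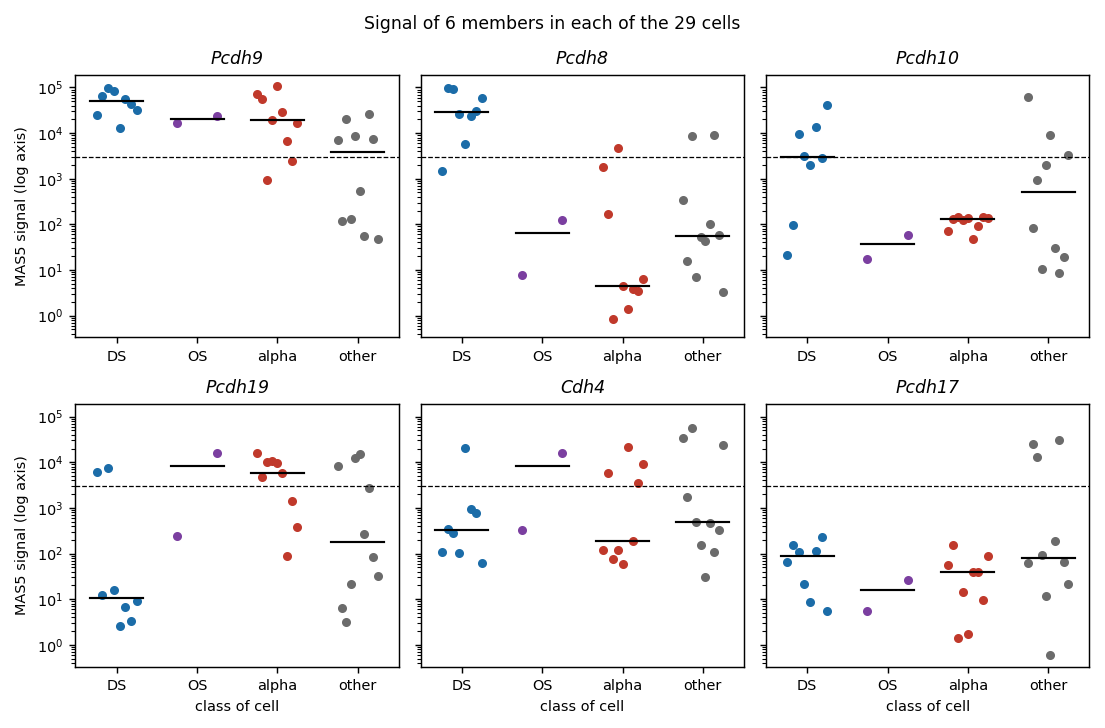
MAS5 signal (logarithmic axis) of *Pcdh9*, *Pcdh8*, *Pcdh10*, *Pcdh19*, *Cdh4* and *Pcdh17* in each of the 29 cells (points, in the order of their numbers within a class), with the median of each class as a bar and the threshold of 3000 as a dashed line. *Pcdh10* lies between 48.8 and 146 in all 9 alpha cells, and *Pcdh17* passes the threshold in 3 cells of other subtypes.

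The start sites of the 3 delta-2 genes whose shares differed most between DS and alpha cells are shown to let their sequences be compared. These are the RefSeq promoter windows of 300 bases on GRCm38.p6, from 250 bases before the start of the gene to 50 after it, on the strand of the gene. Capitals mark matches, on either strand, to the TATA box TATAAA, the GC box GGGCGG and the CRE half-site TGACG.
Pcdh8, chr14:79771263-79771562, minus strand: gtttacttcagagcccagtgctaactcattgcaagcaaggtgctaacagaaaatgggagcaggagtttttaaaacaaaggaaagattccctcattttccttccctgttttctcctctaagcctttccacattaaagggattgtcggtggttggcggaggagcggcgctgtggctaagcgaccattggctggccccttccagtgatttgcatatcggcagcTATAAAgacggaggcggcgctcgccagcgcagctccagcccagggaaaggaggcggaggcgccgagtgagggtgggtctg
Pcdh10, chr3:45378148-45378447, plus strand: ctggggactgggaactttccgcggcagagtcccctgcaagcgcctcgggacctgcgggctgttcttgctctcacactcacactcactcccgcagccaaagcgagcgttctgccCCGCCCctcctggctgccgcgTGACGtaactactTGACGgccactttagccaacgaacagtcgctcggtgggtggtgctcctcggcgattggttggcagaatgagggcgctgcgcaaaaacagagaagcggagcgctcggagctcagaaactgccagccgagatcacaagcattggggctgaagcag
Pcdh19, chrX:133688944-133689243, minus strand: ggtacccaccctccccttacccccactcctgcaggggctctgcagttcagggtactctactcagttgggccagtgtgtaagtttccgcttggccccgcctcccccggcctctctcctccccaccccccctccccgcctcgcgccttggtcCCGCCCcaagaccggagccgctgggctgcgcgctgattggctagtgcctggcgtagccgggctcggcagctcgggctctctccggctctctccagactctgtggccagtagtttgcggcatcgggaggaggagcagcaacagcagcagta
The window of *Pcdh8* held 1 TATAAA, which 13.6% of 32851 promoters of this length hold, and 14 CpG dinucleotides. *Pcdh10* held 1 GC box (in 35.7% of promoters), 2 CRE half-sites (in 20.8%) and 24 CpG, and *Pcdh19* held 1 GC box and 18 CpG, where the median promoter had 7 CpG. E-boxes (CANNTG, in 72.3% of promoters) were at 1 place in *Pcdh19* and at none in *Pcdh8* and *Pcdh10*, and the letters ATAATTAAT (in 0.274%) were in none of them. No motif of this search was in both *Pcdh8* and *Pcdh10*, and no matches overlapped. These matches describe letters and not sites in use.

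The 9 delta protocadherins occurred in 17 combinations among the 29 cells, 11 of them in 1 cell each. The most frequent was *Pcdh9* with *Pcdh19*, in 6 cells (ON DS 1, ON hOS 10, EyeWire 4i 24, OFF S alpha 16 and both ON alpha cells). *Pcdh9* alone was found in ON vOS 9, OFF S alpha 18 and ON S non-alpha 28. *Pcdh9* with *Pcdh8* was found in ON DS 2 and ON-OFF DS 5, and both together with *Pcdh10* in ON DS 4 and ON-OFF DS 6. *Pcdh9*, *Pcdh8* and *Pcdh17* were found in EyeWire 6sn 22 and PixON 27. At the main probe sets, no delta protocadherin was detected in OFF T alpha 19, OFF high speed selective 23 and SbC 26. The 4 ON DS cells had 4 different combinations, as did the 4 ON-OFF DS cells, while the 2 ON alpha cells had the same one. With the other *Pcdh7* probe set counted, OFF high speed selective 23 had *Pcdh7* alone, and ON-OFF DS 6 had the same combination as ON-OFF DS 8. With the other *Pcdh19* probe set counted, PixON 27 had *Pcdh19* as well and no longer shared the combination of EyeWire 6sn 22. The part of depth in these differences was not tested.

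Among the type I cadherins, *Cdh4* (R-cadherin, first described in retina) was detected in 9 cells. All 3 OFF T alpha cells had it, at 22015 (cell 17), 3603 (cell 19) and 8996 (cell 20). The 4 OFF S alpha cells had 58.3 to 191. ON alpha 13 had 5734 and ON alpha 12 had 117. Of the DS cells only ON-OFF DS 5 had it (20953), the next being ON-OFF DS 6 at 941. It was further detected in ON hOS 10 (15943), J-RGC 11 (34502), EyeWire 6sn 22 (57172) and LED 29 (23913). The other *Cdh4* probe sets reached at most 2718 and 1797. *Cdh2* (N-cadherin, the main cadherin of neurons) was detected in 5 cells, at 4498 in ON-OFF DS 6, 10912 in ON alpha 12, 6048 and 7781 in OFF T alpha 17 and 20, and 16076 in ON S non-alpha 28. A second *Cdh2* probe set reached at most 382. *Cdh15* (M-cadherin, known from muscle) was detected in ON-OFF DS 7 (8531) and J-RGC 11 (4850), and *Cdh1* and *Cdh3*, the epithelial and placental cadherins, in no cell.

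Among the 11 type II cadherins, *Cdh22* was detected in 4 cells, at 51591 in OFF S alpha 14, 8554 in OFF T alpha 20, 4124 in ON-OFF DS 5 and 3072 in OFF T alpha 17. *Cdh6* was detected in ON-OFF DS 7 (3233), just above the threshold, and *Cdh11* in PixON 27 (4304). *Cdh5*, *Cdh7*, *Cdh8*, *Cdh9*, *Cdh10*, *Cdh18*, *Cdh19* and *Cdh20* were detected in no cell. *Cdh13* (T-cadherin, held in the membrane by a GPI anchor) was detected in ON alpha 13 (6873), and *Cdh16*, *Cdh17*, *Cdh23* and *Cdh26* in none. *Pcdh15*, a cadherin of photoreceptor calyces and hair cell tip links, was detected in ON S non-alpha 28 (12686), a cell with 9 of the 10 rod genes and 5 of 6 cone genes, and their part in this value was not tested. *Pcdh12* and *Pcdh20* were detected in no cell.

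Of the 23 clustered protocadherins, 12 were detected in at least 1 cell (52.2%), near the 55.0% of all genes. Their 19 detections were spread over 12 cells and made up 2.85% of gene and cell pairs, against 15.4% over all genes. *Pcdhb9* was detected in J-RGC 11 (25539), ON alpha 13 (28293), EyeWire 6sw 21 (6083) and ON S non-alpha 28 (8724). *Pcdhb7* was detected in ON-OFF DS 5 (4618), OFF T alpha 19 (5074) and OFF T alpha 20 (20016). Neither was found together with the other in any cell. *Pcdhb16* was detected in J-RGC 11 (3092) and OFF T alpha 17 (5104), and *Pcdhb17* in ON alpha 13 (4018) and EyeWire 6sn 22 (14749). The others were in 1 cell each: *Pcdhb21* and *Pcdhb22* in ON-OFF DS 5, *Pcdhb3* in ON-OFF DS 6, *Pcdhb12* in ON alpha 12, *Pcdhb15* in OFF T alpha 17, *Pcdhb19* in ON vOS 9, *Pcdhb20* in J-RGC 11 and *Pcdhgc4* in EyeWire 6sw 21. The signal of *Pcdhb19* in ON vOS 9 was 56243, and in the other 28 cells it was at most 138. No cell had more than 3 of these 23 genes, and the 4 ON DS and 4 OFF S alpha cells had none of them. Probe sets shared by several alpha protocadherin genes are not counted here. At least 1 of those was detected in each of the 4 ON DS cells and in OFF S alpha 15. *Pcdhb1*, *Pcdhb2*, *Pcdhb4*, *Pcdhb5*, *Pcdhb6*, *Pcdhb8*, *Pcdhb10*, *Pcdhb11*, *Pcdhb13*, *Pcdhb14* and *Pcdhb18* were detected in no cell. Sequences of neighbouring *Pcdhb* genes are similar, and how far a probe set reads a neighbour was not tested.

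Between DS and alpha cells, 10 of the 56 genes had the higher share in DS and 11 in alpha cells, and the rest had shares of 0 in both, where 4382 and 4302 of all 18194 genes had the higher share in DS and in alpha cells. Of the 9 delta protocadherins 5 had the higher share in DS and 1 in alpha cells, and of the 23 clustered ones 3 had it in DS and 6 in alpha cells. Any difference counts here, down to that of *Pcdh7* (2 of 8 DS and 2 of 9 alpha cells). The 3 clustered genes were in 1 of 8 DS cells each. The 6 were in 1 of 9 alpha cells each, apart from *Pcdhb7* (2 of 9). Counts resting on single cells do not set the 2 subfamilies apart. A share higher by at least 50 percentage points in DS cells was found for 2 of the 56 genes, *Pcdh8* and *Pcdh10*, against 0.473% of all genes, and in alpha cells for 0 of 56, against 0.561% of all genes. *Pcdh8* had been named as a marker of DS cells with these data, so its count is no independent evidence. With the 5 DS and 3 alpha cells that had few rod genes, *Pcdh8* was in 5 of 5 and 0 of 3, *Pcdh10* in 3 of 5 and 0 of 3, *Pcdh19* in 0 of 5 and 2 of 3, and *Cdh2* in 1 of 5 and 3 of 3. Without any 1 of the 4 DS cells that had *Pcdh10*, its difference fell below 50 percentage points.

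**Figure D4:**
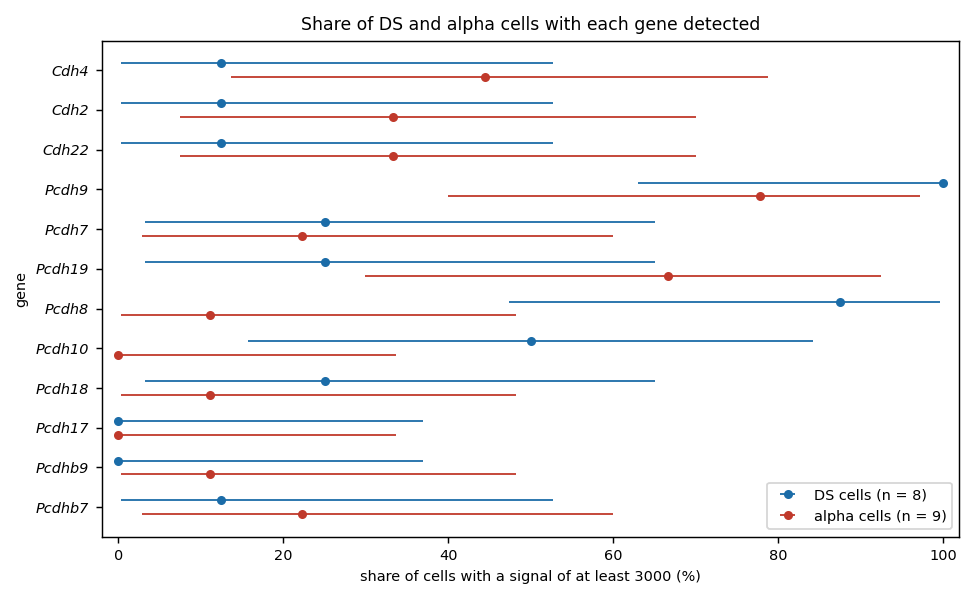
Share of the 8 DS cells (blue) and of the 9 alpha cells (red) with a signal of at least 3000, for the 12 genes detected in at least 3 cells, with exact 95% Clopper-Pearson intervals as bars. For *Pcdh8* the intervals are 47.3% to 99.7% in DS cells and 0.281% to 48.2% in alpha cells. The bars cover counting error only and are no test between groups. *Pcdh8* had been named as a marker of DS cells with these data.

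Within the DS cells, the 4 ON-OFF DS cells had 4 to 7 of these genes (median 5.5) and the 4 ON DS cells 2 to 5 (median 2.5), with medians of 3218.5 and 2490 detected genes. With the same number of genes called in every cell the difference of the medians was 0. *Pcdh9* was in all cells of both subtypes. *Pcdh7* was in 2 of 4 ON-OFF DS and 0 of 4 ON DS cells, the 1 gene of 56 that was higher there by at least 50 percentage points, against 6.38% of all genes. *Pcdh19* was in 2 of 4 ON DS and 0 of 4 ON-OFF DS cells, again 1 of 56, against 2.00% of all genes. ON DS 1 and ON DS 3, the DS cells with *Pcdh19*, also had 9 rod genes each, and the other 2 ON DS cells had none. The classical cadherins *Cdh4*, *Cdh2*, *Cdh15*, *Cdh22* and *Cdh6* were each found in 1 ON-OFF DS cell and in no ON DS cell. In all, 11 of the 56 genes had the higher share in ON-OFF DS and 1 in ON DS cells, and over all 18194 genes 3712 and 1876 did.

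Within the alpha cells, the 3 OFF T alpha cells had 9, 2 and 6 of these genes and the 4 OFF S alpha cells 1 to 3. *Cdh4* (3 of 3 and 0 of 4), and *Cdh2*, *Pcdh7* and *Pcdhb7* (2 of 3 and 0 of 4 each) were higher in OFF T alpha cells by at least 50 percentage points, 4 of 56 genes against 5.29% of all genes. None of 56 was higher in OFF S alpha cells, against 1.96% of all genes. All 4 OFF S alpha cells were rod-gene-rich and 1 of the 3 OFF T alpha cells was, so rod RNA and subtype cannot be told apart in this comparison. Between polarities, *Cdh13*, *Pcdhb9*, *Pcdhb12* and *Pcdhb17*, each in 1 of the 2 ON alpha cells and in 0 of 7 OFF alpha cells, were higher in ON alpha cells, 4 of 56 against 7.41% of all genes. None was higher in OFF alpha cells, against 1.08% of all genes.

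The cells of the other subtypes gave 1 value each. J-RGC 11 had 9 of the genes, *Cdh4*, *Cdh15*, *Pcdh9*, *Pcdh10*, *Pcdh18*, *Pcdh19*, *Pcdhb9*, *Pcdhb16* and *Pcdhb20*, at 2908 detected genes and 1 rod gene. SbC 25 had 5, all of them delta protocadherins (*Pcdh7*, *Pcdh10*, *Pcdh11x*, *Pcdh18* and *Pcdh19*), but lacked *Pcdh9* (528). EyeWire 6sw 21, the cell with the most detected genes (4201), had 3. ON vOS 9 shared *Pcdh9* with ON hOS 10 and had none of its *Cdh4* and *Pcdh19* (signals of 324 and 246).

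Of 51 genes on a list of cadherin partners and other superfamily members, 46 had a value and 29 (63.0%) were detected in at least 3 cells, above the 39.1% of all genes. None of the 46 differed by at least 50 percentage points between DS and alpha cells in either direction. Of all genes 0.473% were higher by this much in DS and 0.561% in alpha cells. At shares this low, finding none among 46 genes says little. Among catenins, *Ctnnb1* (beta-catenin) was detected in 24 cells and *Pkp4*, a p120-related protein, in 18. Of the partners of delta protocadherins, *Nckap1* and *Cyfip2*, subunits of the WAVE complex, were in 26 and 23 cells, and *Ppp1ca*, a catalytic subunit of protein phosphatase 1, in 27. Of the other superfamily members, the calsyntenins *Clstn1* and *Clstn2* were in 29 and 18 cells. *Cdhr1*, the photoreceptor cadherin, was in 16 cells, all of them rod-gene-rich. Of the proteins that shape the choice of clustered protocadherin promoters, *Rad21* and *Smc1a* (cohesin) were in 20 and 15 cells and *Ctcf* in 15. Of the listed genes, 8 were detected in no cell.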

How the data were processed

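Amplified cDNA from 29 single RGCs was hybridized to 1 array each. MAS5, run by the authors (version not given in the sources used here), gave the deposited signals, which are linear intensity values. Of 45101 probe sets, 34958 belonged to 1 gene by the platform annotation. The 932 probe sets of several genes and the 9211 without a name were left out. For a gene with several probe sets, the one whose mean log2 signal was highest over all cells was used, with a floor of 375 (8.55 on the log2 scale). The 56 genes had 101 probe sets, and 27 genes had several. Groups follow the sample labels. Members, gene lists, thresholds and naming rules were chosen with earlier results of these data known. Genes were named that were detected in at least 3 cells, that the study names, or whose share differed by at least 50 percentage points between groups. Genes in 1 or 2 cells were named with their cells, undetected genes by name only, and listed partner genes from 15 cells on. Alternatives were thresholds of 1500 and 6000, floors of 3 and 1500, the same number of called genes per cell, any or the mean of all probe sets, quantile normalization, and leaving out the cell of lowest depth, the 18 rod-gene-rich cells or each cell in turn. Promoters and gene order come from RefSeq tables of GRCm38.p6. Precision is limited by the number of arrays. Calculations used Python 3.11.15, numpy 2.4.6, pandas 2.3.3 and scipy 1.17.1, and figures matplotlib 3.10.9.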

Additional observations from a re-analysis of the deposited data

Results flagged for a closer look

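In the 4 OFF S alpha cells the log2 signal of *Pcdh19* was lowest in OFF S alpha 18, at the floor of 8.55 (signal 86.5), far from the other 3 cells, whose signals were 9566 to 10674. Its gap to the next cell was 0.967 of the range of the group. Over 23 combinations of a measure and a group of 4 to 10 cells, this was the 1 with such a gap. The limit used is set to flag about 1 in 20 groups of normally distributed values. Signals held at a floor are not distributed so, and this rate cannot be applied to them.

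The alpha protocadherins could not be read gene by gene, because 6 probe sets match several of them. Of these, 3 had signals of at least 3000, in 15, 11 and 3 of the 29 cells, and 20 cells had at least 1. The first was detected in 5 of 8 DS, 3 of 9 alpha, 1 of 2 OS and 6 of 10 other cells, with the highest signal, 131893, in SbC 26, where none of the 56 genes was detected. The second reached 22650 in ON DS 4 and the third 56033 in OFF S alpha 15. There were no control samples, and which of the 14 genes of each of these probe sets gave the signal cannot be told apart.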

How the results depend on the processing

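The 12 genes in at least 3 cells became 5 with the mean of all probe sets of a gene, and ran from 8 to 14 under the other alternatives (11 to 12 without any 1 cell). The median per cell, 3, was 1 with the mean of probe sets, 2 at a threshold of 6000, 5 without the rod-gene-rich cells, and 3 to 3.5 without any 1 cell. The DS minus alpha difference of medians, 1.5, was 0.5 at a threshold of 1500 and with the mean of probe sets, 1 to 2 without any 1 of these cells, and reversed to -2 without the rod-gene-rich cells. The genes higher in DS cells were 1 at a threshold of 6000 and 1 with the mean of probe sets, in both cases *Pcdh8*, and 1 to 2 without any 1 cell. The genes higher in alpha cells were 2, *Cdh2* and *Pcdh19*, without the rod-gene-rich cells, and 0 to 1 without any 1 cell, the 1 being *Pcdh19* without ON DS 1, ON DS 3, OFF S alpha 18, OFF T alpha 19 or OFF T alpha 20. The 4 genes higher in OFF T alpha than in OFF S alpha cells were 2 at a threshold of 6000, 1 with the mean of probe sets, and 4 to 8 without any 1 cell, 8 without OFF T alpha 19 and 7 without OFF T alpha 20. The ON-OFF DS minus ON DS difference of medians, 3, was 0 with the same number of genes (2908) called in every cell, 1 with the mean of probe sets, 1.5 after quantile normalization, and 2.5 to 3.5 without any 1 cell. These last 2 comparisons were added after seeing the data. The mean over probe sets gave 0 detected cells for *Cdh2*, *Cdh4*, *Pcdh7*, *Pcdh10*, *Pcdh18* and *Pcdh19*, 3 for *Pcdh9* and 8 for *Pcdh8*. The cause of these changes was not tested. At this depth a gene listed as not detected may be present. No paired analysis was possible because the result comes from no test and no number pairs the cells.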
